A study of Mus musculus with 4 samples.

Results

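The expressed Zfp genes are mouse genes whose symbol is Zfp followed by a number and whose level, summed over the deposited transcripts of the symbol, averaged at least 5 FPKM (sequenced fragments per kilobase of transcript, scaled to the size of the library) over the 4 libraries. Of 341 such symbols among 45803 in the table, 154 were members. Zfp750 and Zfp36 passed the level and were left out by rule, and 185 symbols averaged under 5. The members were thus chosen by their level over both groups together, and their levels are given as a description, while the difference between the groups played no part in the choice. At the edge, Zfp758 (5.03 FPKM) and Zfp850 (5.08 FPKM) were just inside, and Zfp574 (4.90 FPKM) and Zfp867 (4.89 FPKM) just outside.

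The libraries came from epidermal keratinocytes of newborn mice at postnatal day 0, with no treatment. Control mice were K14Cre,Mettl14F/+, with 1 floxed and 1 wild-type allele of Mettl14, and conditional knockout mice (cKO) were K14Cre,Mettl14F/F. Both genotypes carried Cre recombinase under the keratin 14 promoter, which is active in basal keratinocytes, so cells of other lineages in the samples would keep Mettl14, and the control is itself not a mouse without Cre. Mettl14 encodes a subunit of the enzyme that writes N6-methyladenosine (m6A) on RNA. There were 2 libraries per genotype, numbered 1 and 2 in the labels, but no label ties them to separate animals. The p-values given here therefore rest on the variation among 4 libraries, part or all of which may be technical.

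Mettl14 was at 7.00 and 6.40 FPKM in control 1 and control 2 and at 5.89 and 3.79 FPKM in cKO 1 and cKO 2, so both cKO libraries lay below both controls (log2 difference -0.42, SE 0.26; adjusted p = 0.959, limma). Which exons were floxed was not stated in the labels, and reads outside the deleted part check nothing. All 6 keratinocyte markers exceeded 1 FPKM in every library, and none of the 3 endothelial or 3 muscle markers did. The depth implied by the steps of low values was 16800000 to 25700000 reads. A member had a median of 662 implied reads per library and at least 82, which by counting alone gives relative errors of 3.88% and 11.0%.

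Most Zfp proteins hold C2H2 zinc fingers, short modules in which a pair of cysteines and a pair of histidines clamp a zinc ion and the helix between them reads DNA bases. Fingers stand in tandem and are often joined by a conserved linker. Many of these proteins also begin with a KRAB domain, which binds the co-repressor Trim28 and through it recruits histone methylation and heterochromatin proteins, mainly at transposable elements. KRAB zinc finger genes arose by repeated duplication and lie in clusters on the chromosomes. Other members have no KRAB domain, act as activators, splicing or cytoskeletal proteins, or have no described role.

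The coding sequence of several fingers is printed because it shows both the shared frame of the family and the base composition along which the members' levels separated. Sequences are from GENCODE M21 transcripts (GRCm38), run 5′ to 3′ on the coding strand, and start at the codon of the first cysteine of a finger. Capitals mark the codons of the paired cysteines and histidines.
Zfp617 finger 3 of 14: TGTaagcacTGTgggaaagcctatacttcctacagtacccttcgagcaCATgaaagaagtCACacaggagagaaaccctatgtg
Zfp617 finger 4 of 14: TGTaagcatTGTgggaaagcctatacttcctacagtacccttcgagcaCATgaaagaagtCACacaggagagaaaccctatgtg
Zfp617 finger 5 of 14: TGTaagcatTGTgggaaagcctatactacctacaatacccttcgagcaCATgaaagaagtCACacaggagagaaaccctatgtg
Zfp942 finger 3 of 11: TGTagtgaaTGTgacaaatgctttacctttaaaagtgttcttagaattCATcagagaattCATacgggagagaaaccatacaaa
Zfp942 finger 4 of 11: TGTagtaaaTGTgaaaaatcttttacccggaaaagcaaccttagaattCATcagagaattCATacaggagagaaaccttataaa
Zfp524 finger 2 of 4: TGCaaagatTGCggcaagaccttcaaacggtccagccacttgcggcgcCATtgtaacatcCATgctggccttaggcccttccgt
Zfp524 finger 3 of 4: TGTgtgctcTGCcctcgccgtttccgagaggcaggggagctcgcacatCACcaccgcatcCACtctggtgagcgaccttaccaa
Zfp637 finger 1 of 6: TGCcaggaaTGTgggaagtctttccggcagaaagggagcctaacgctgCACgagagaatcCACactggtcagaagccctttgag
Zfp637 finger 2 of 6: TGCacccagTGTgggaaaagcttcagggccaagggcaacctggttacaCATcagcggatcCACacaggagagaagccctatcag
They lie in coding exons at chr8:71932500-71932583 (+), chr8:71932584-71932667 (+) and chr8:71932668-71932751 (+) for Zfp617, at chr17:21928843-21928926 (-) and chr17:21928759-21928842 (-) for Zfp942, at chr7:5017889-5017972 (+) and chr7:5017973-5018056 (+) for Zfp524, and at chr6:117845186-117845269 (+) and chr6:117845270-117845353 (+) for Zfp637. Each repeat is 84 bases long. Fingers 3 and 4 of Zfp617 differ at 1 base and fingers 4 and 5 at 2, whereas finger 3 of Zfp617 shares 38 of 84 bases with finger 2 of Zfp524. G and C make up 33.3% and 32.1% of the Zfp942 fingers and 56% and 61.9% of the Zfp524 fingers.

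The core of the KRAB domain is shown for a member with a large difference between genotypes and for a member of the chromosome 17 group described further on. Here capitals mark the codons of an aspartate and valine pair, a phenylalanine, and a glutamate and tryptophan pair, the residues searched for.
Zfp617 KRAB core: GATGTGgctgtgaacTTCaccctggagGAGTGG
Zfp942 KRAB core: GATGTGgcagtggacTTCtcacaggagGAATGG
They lie at chr8:71928220-71928252 (+), from residue 8 of 559, and at chr17:21930442-21930474 (-), from residue 17 of 486. A complete coding sequence was found for 153 members, and 58 held this KRAB pattern, 95 did not, and 1 (Zfp930) could not be scanned. A missing match says only that this pattern is not in the translated sequence. The C2H2 pattern (cysteine, 2 or 4 residues, cysteine, 12 residues, histidine, 3 to 5 residues, histidine) occurred a median of 9 times per member, 12 times in those with a KRAB core match and 7 times in the others. Zfp185, Zfp330, Zfp503, Zfp703 and Zfp935 had no finger by this pattern. The linker known as TGEKP was found in 53 of the 58 members with a KRAB core match and in 46 of the 95 without.

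The family spanned a range of levels from a few FPKM to above 100. Of the 154 members, 77 averaged under 10 FPKM and 7 over 30. Zfp207, a spindle and kinetochore protein also known as BuGZ, was the most abundant, at 139.5 and 127.5 FPKM in the controls and 130.8 and 121.2 in the cKO libraries. Zfp266, a KRAB zinc finger gene, followed at 111.2 and 94.2 against 124.7 and 82.5 FPKM. For both, the ranges of the genotypes overlapped. Zfp185, a LIM-domain protein of the actin cytoskeleton, was at 50.5 and 50.3 against 53.0 and 47.5 FPKM. The 4 values of Zfp185 differed little, and its log2 difference was -0.01 (SE 0.20).

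Zfp706, a small zinc finger protein known from the exit of embryonic stem cells from pluripotency, was at 36.2 and 44.6 FPKM against 43.8 and 46.5. Zfp644, a partner of the histone H3 lysine 9 methyltransferases G9a and GLP, was at 52.7 and 42.2 against 48.6 and 25.1 FPKM, lowest in cKO 2. Zfp740 was at 38.7 and 53.4 against 32.1 and 37.5 FPKM, below both controls in both cKO libraries. Among the 10 highest members, Zfp740 (lower in cKO) and Zfp64 (higher) alone separated the genotypes in all 4 libraries. Of all genes tested, 16.6% were lower and 16.2% higher in this way. Zfp91, an E3 ubiquitin ligase, Zfp532 and Zfp692 completed the 10, with means of 30.7, 27.6 and 27.4 FPKM.

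As a family, the members made up 0.447% and 0.342% of the summed FPKM of control 1 and control 2 and 0.432% and 0.299% of those of cKO 1 and cKO 2. Their median level was 10.3, 10.1, 10.4 and 8.76 FPKM in the same order. The first 3 libraries were close to each other and cKO 2 was the lowest. It held the lowest value of 83 of the 154 members. The share of all genes that were lowest in cKO 2 is not given here, so this count has no background. In bulk RNA, fewer cells of a type and less RNA per cell cannot be told apart.

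No member passed the test between genotypes. All 154 were among the 13817 genes tested, those that reached 1 FPKM in 2 or more libraries, which their mean level makes likely, and limma's moderated test on log2(FPKM + 1) called 0 of them at a Benjamini-Hochberg adjusted p under 0.05. It called 0 genes in the whole table (0.0%). At an unadjusted p under 0.05 it gave 3 members, Zfp524, Zfp617 and Zfp704, beside 686 genes in all (4.96%), a share of members below the share of all genes. The smallest adjusted p among the members was 0.959. With 2 libraries against 2, an exact two-sided permutation test of a single gene cannot go below p = 0.333.

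In 17 members both cKO libraries were above both controls (11.0% of members, 16.2% of all genes tested), and in 22 both were below (14.3% of members, 16.6% of all genes tested). Among the 9481 genes tested that averaged at least 5 FPKM, the level set for the members, the shares were 19.0% and 13.5%. The members' share above was thus lower than both backgrounds, and their share below lay between them. The median log2 difference, cKO minus control, was -0.11 over the members and -0.03 over all genes tested, and 0.01 over those averaging at least 5 FPKM. Within replicate number 1 the members' median was 0.02 and within number 2 it was -0.21. The family median turned to 0.07 without cKO 2. Leaving out a library leaves 3 values to separate: the members above and below then numbered 22 and 35 without control 1 (14.3% and 22.7%, with 24.0% and 31.4% of all genes tested). They were 46 and 58 without control 2 (29.9% and 37.7%, with 34.7% and 34.1% of all genes). Without cKO 1 they were 45 and 90 (29.2% and 58.4%, with 39.6% and 38.2% of all genes), and without cKO 2 they were 55 and 35 (35.7% and 22.7%, with 27.6% and 35.8% of all genes). Within both replicate numbers 45 members were higher in cKO (31.8% of all genes tested were) and 62 were lower (37.6% of all genes tested were).

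Several levels of other cells moved with genotype in the same libraries. The summed FPKM of 8 leukocyte markers, of which 7 exceeded 1 FPKM in every library, was 308.9 and 376.4 in the controls and 176.0 and 269.4 in the cKO libraries. That of 6 fibroblast markers, with 5 above 1 FPKM throughout, was 116.1 and 113.8 against 84.6 and 92.0. In 4 melanocyte markers, all above 1 FPKM throughout, the sum was 465.2 and 407.0 against 360.2 and 388.7 FPKM. In 3 Schwann cell markers, 1 of them above 1 FPKM throughout, it was 14.7 and 13.8 against 11.3 and 7.80 FPKM. In these 4 cell types both cKO sums were below both control sums. Gene by gene, 16.6% of all genes tested were lower in this way. The genotypes overlapped in the sums of 6 keratinocyte markers (20120 and 10950 against 16330 and 11190 FPKM) and 3 erythroid markers (285.1 and 732.5 against 1070 and 347.9). They also overlapped in the hair shaft and sheath sum and in the low endothelial and muscle sums. None of these markers was listed at 0 throughout. Their part in the members' differences was not tested.

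**Figure D1:**
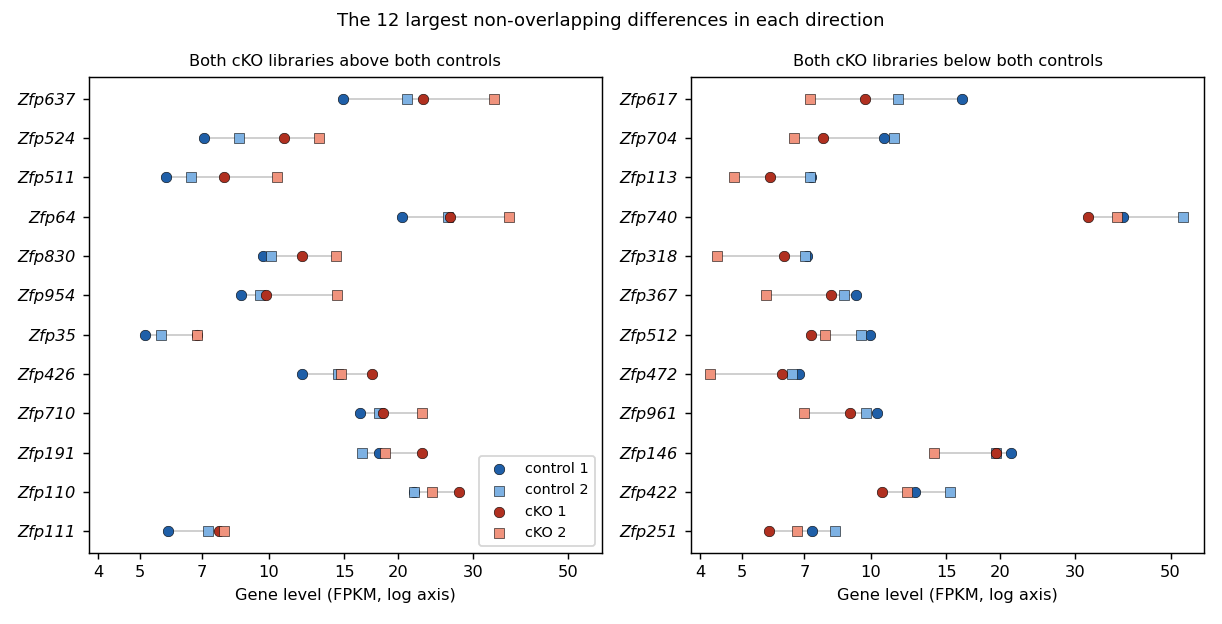
Level (FPKM, log axis) in each of the 4 libraries of the 12 members with the largest difference in each direction among those whose genotypes did not overlap; blue marks controls, red marks cKO, circles replicate number 1 and squares number 2. On the left every red mark is to the right of both blue marks, from Zfp637 (14.93 and 21.04 against 22.91 and 33.50 FPKM) to Zfp111; on the right every red mark is to the left of both, and none of the 24 genes passed the adjusted threshold.

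Zfp637 had the largest difference among the members that were higher in cKO without overlap. This gene of 6 fingers and no KRAB core match (chr6:117841180-117845956, plus strand) was at 14.93 and 21.04 FPKM in the controls (17.98 ± 4.32, SD, n = 2) and at 22.91 and 33.50 FPKM in the cKO libraries (28.2 ± 7.49, SD, n = 2). The groups did not overlap, but control 2 was close to cKO 1. The log2 difference was 0.62 (SE 0.28; adjusted p = 0.959, limma), with 0.59 within number 1 and 0.65 within number 2. Its most abundant transcript, protein coding and 1098 nt long, held 72.7% of the level and went from 10.3 and 15.1 FPKM in the controls to 17.5 and 24.3 in the cKO libraries. This transcript, the only one of the gene checked, shared no 75-base stretch with another gene's transcripts.

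Zfp524, with 4 fingers (chr7:5014415-5018488, plus strand), was at 7.05 and 8.51 FPKM in the controls and at 10.9 and 13.1 in the cKO libraries. The lower cKO value exceeded the higher control value by more than the controls differed from each other. The log2 difference was 0.57 (SE 0.22; unadjusted p = 0.0442, adjusted p = 0.959, limma), nearly the same within number 1 (0.56) and number 2 (0.57). This value is uncertain because 55.8% of the 75-base stretches of the gene's only listed transcript also occur in transcripts of other genes. Gm44973 held the largest share, and the labels do not say how shared reads were divided.

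Zfp511 followed with 5.76 and 6.6 FPKM against 7.86 and 10.47 (log2 difference 0.49, SE 0.23). Zfp64, which is known to regulate the leukaemia gene MLL, was at 20.4 and 26.2 against 26.5 and 36.3 FPKM (0.41, SE 0.25). In Zfp64, control 2 and cKO 1 were nearly equal. Zfp830, a protein of the spliceosome, was at 9.70 and 10.15 against 11.98 and 14.38 FPKM, and Zfp954, with a KRAB core match, at 8.61 and 9.53 against 9.86 and 14.4. Their log2 differences were 0.37 and 0.36, in Zfp954 mostly from cKO 2.

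The next 6 had log2 differences of 0.23 to 0.29. They were Zfp35, Zfp426, Zfp710, Zfp191, which is also called Zfp24 and is needed for myelination in the brain, Zfp110, a partner of the p75 neurotrophin receptor, and Zfp111. In Zfp426, Zfp191 and Zfp110 cKO 1 was the highest library and cKO 2 only slightly exceeded the controls: Zfp110 was at 21.8 and 21.9 against 27.8 and 24.0 FPKM. Over protein-coding transcripts only, the log2 differences of Zfp111 and Zfp110 were 0.115 and 0.261. The most abundant transcript of Zfp111 overlapped between genotypes, at 2.95 and 4.96 against 3.62 and 5.24 FPKM. So did that of Zfp710, at 13.2 and 15.6 against 14.8 and 18.2 FPKM. The remaining 5 of the 17, Zfp868, Zfp330, Zfp772, Zfp639 and Zfp324, had log2 differences of 0.06 to 0.20. Of all 17, 5 had a KRAB core match.

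Zfp617 had the largest difference among the members that were lower in cKO without overlap. This KRAB zinc finger gene of 14 fingers (chr8:71908635-71934629, plus strand), whose near-identical fingers are printed above, was at 16.3 and 11.6 FPKM in the controls (13.9 ± 3.32, SD, n = 2) and at 9.67 and 7.21 in the cKO libraries (8.44 ± 1.74, SD, n = 2). The groups were apart by less than the controls were from each other. The log2 difference was -0.66 (SE 0.26; unadjusted p = 0.0475, adjusted p = 0.959, limma), with -0.70 within number 1 and -0.62 within number 2. Of the 75-base stretches of its most abundant transcript, 39.0% recur in transcripts of other genes, with the largest share in Gm18180. Its level is uncertain for that reason.

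Zfp704, with 1 finger by the pattern (chr3:9427020-9610085, minus strand), was at 10.7 and 11.3 FPKM in the controls (11.0 ± 0.438, SD, n = 2) and at 7.74 and 6.61 in the cKO libraries (7.17 ± 0.799, SD, n = 2). Replicates were close in both groups and the gap between the groups was wider than either spread. The log2 difference was -0.56 (SE 0.21; unadjusted p = 0.0368, the smallest among the members; adjusted p = 0.959, limma). Within number 1 it was -0.42 and within number 2 it was -0.70. Transcripts of other genes, with the largest share in C030034L19Rik, hold 17.9% of the 75-base stretches of its most abundant transcript.

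Zfp113, a KRAB zinc finger gene, was at 7.26 and 7.21 FPKM against 5.81 and 4.8 (log2 difference -0.39, SE 0.21). Zfp740 (-0.38, SE 0.24) had its values given above. Zfp318, which B cells need to make IgD, was at 7.09 and 7.03 against 6.27 and 4.38 FPKM (-0.37, SE 0.24). Zfp367 was at 9.25 and 8.66 against 8.07 and 5.68 FPKM (-0.35, SE 0.24). In Zfp318 and Zfp367 most of the difference came from cKO 2, with -0.15 and -0.18 within number 1 and -0.58 and -0.53 within number 2. Over protein-coding transcripts only, Zfp318 was at -0.18 and Zfp367 at -0.17, while Zfp740 was at -0.43. The most abundant transcript of Zfp367 overlapped between genotypes, at 7.00 and 5.52 against 6.67 and 4.39 FPKM. That of Zfp318 overlapped too, at 5.98 and 5.11 against 5.67 and 3.8 FPKM.

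Zfp512 differed about as much in both cKO libraries, at 9.94 and 9.5 against 7.24 and 7.81 FPKM (-0.33, SE 0.20). Zfp472, Zfp961, Zfp146 (a protein made almost only of fingers), Zfp422 and Zfp251 had log2 differences of -0.32 to -0.27. Zfp961 was at -0.06 over protein-coding transcripts only, and Zfp512 at -0.36. The most abundant coding transcript of Zfp961 overlapped between genotypes, at 4.56 and 5.90 against 5.45 and 3.26 FPKM. In Zfp146, control 2 (19.6 FPKM) and cKO 1 (19.6 FPKM) differed by 0.02 FPKM, so the groups barely separated. The other 10 of the 22, Zfp414, Zfp12, Zfp664, Zfp276, Zfp507, Zfp869, Zfp799, Zfp384, Zfp90 and Zfp236, lay between -0.26 and -0.15. Of all 22, 7 had a KRAB core match.

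Zfp101 had a larger difference than any of these, but its groups overlapped, and it is named here after its values were seen. This KRAB zinc finger gene of 12 fingers was at 22.8 and 12.5 FPKM in the controls and at 16.3 and 5.31 in the cKO libraries. Each cKO library was below the control of its number, while cKO 1 was above control 2. The log2 difference was -0.78 (SE 0.53; adjusted p = 0.959, limma), -0.46 within number 1 and -1.10 within number 2. Without cKO 1 it was -1.51 (adjusted p = 0.0335, limma, with the lone cKO library assumed to vary like the controls), and without another library it came down to as little as -0.05.

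In Zfp101, as in 112 of the 154 members (72.7%, against 62.4% of all genes tested), the libraries numbered 2 differed from those numbered 1 by more than cKO from control on the log2 scale. Averaged over both genotypes, the median log2 difference, number 2 minus number 1, was -0.14 over the members and 0.08 over all genes tested. It was -0.08 between the controls and -0.22 between the cKO libraries. In 69 members both libraries numbered 2 were below both numbered 1 (44.8% of members, 24.6% of all genes tested), and in 38 both were above (24.7% of members, 32.8% of all genes tested). The number is only a replicate number in the labels. Other readouts moved with it: mitochondrial transcripts took 8.33% and 4.44% of the summed FPKM in control 1 and cKO 1 against 2.36% and 1.52% in control 2 and cKO 2, Krt10, a keratin of differentiating cells, was at 15340 and 12140 against 5382 and 6217 FPKM, and the sum of 4 hair shaft and sheath markers was 131.5 and 159.8 against 365.4 and 504.4. Transcripts with a retained intron made up 6.14% and 5.49% of the members' summed level in the 2 libraries numbered 1, with 4.53% and 3.53% in the others. Their part in the members' differences was not tested.

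The members with a KRAB core match accounted for most of the lower family level in the libraries numbered 2: their summed level was 749.3 and 599.1 FPKM in control 1 and control 2 and 760.6 and 487.2 in cKO 1 and cKO 2, while that of the others was 1497 and 1485 against 1517 and 1399. Their median level was 9.30 and 7.59 FPKM in control 1 and control 2 and 9.57 and 5.54 in cKO 1 and cKO 2. The members without a match were at 11.63 and 11.65 against 11.13 and 10.47 FPKM. The lowest library was cKO 2 in 43 of the 58 with a match and in 39 of the 95 without, again with no share of all genes beside them. The median difference, number 2 minus number 1, was -0.49 with a match and 0.08 without. Both libraries numbered 2 were below both numbered 1 in 38 of 58 (65.5%) against 30 of 95 (31.6%). They were above in 5 of 58 (8.62%) against 33 of 95 (34.7%). Of all genes tested, 24.6% were below and 32.8% above, so the members without a match lay closer to those shares.

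Between genotypes the 2 classes were less far apart. The median log2 difference, cKO minus control, was -0.16 with a KRAB core match and -0.04 without. Within number 1 the medians were 0.01 and 0.03, and within number 2 they were -0.32 and -0.08. Higher in cKO without overlap were 5 of the 58 (8.62%) and 12 of the 95 (12.6%), and lower were 7 (12.1%) and 15 (15.8%). The shares above were below the 16.2% of all genes tested and the 19.0% of those averaging at least 5 FPKM. The shares below were under the 16.6% of all genes, and that of members without a match exceeded the 13.5% of genes averaging at least 5 FPKM. The median of the KRAB class was below 0 within number 2 and at 0.01 within number 1.

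**Figure D2:**
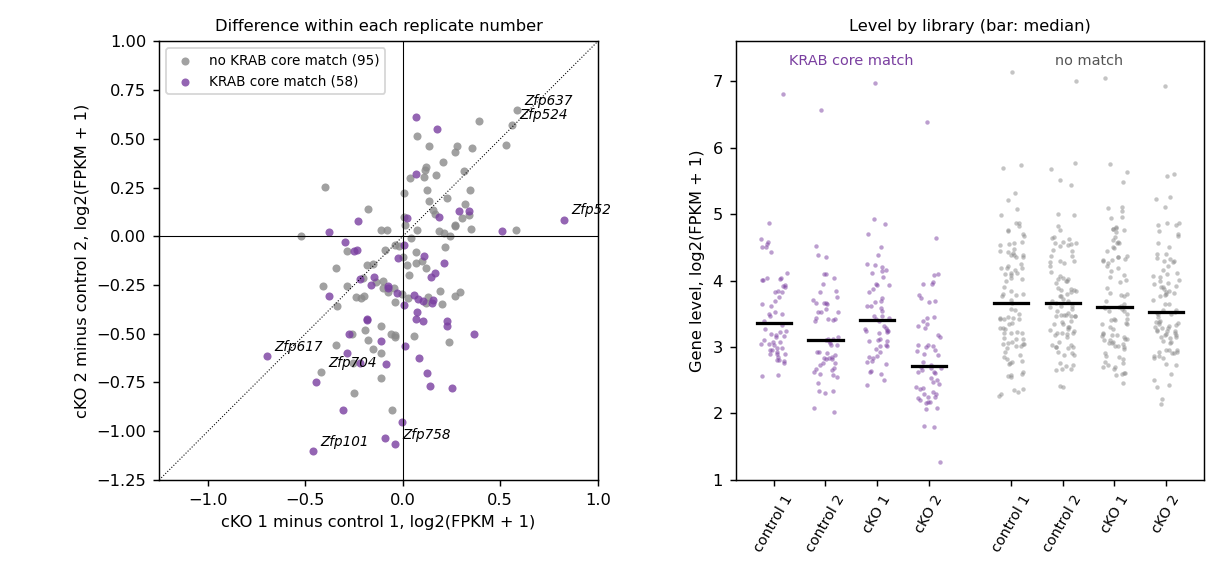
Left, for each of 153 members, the log2 difference cKO 1 minus control 1 (horizontal) against cKO 2 minus control 2 (vertical), with KRAB core matches in purple and the dotted line where both are equal; right, the members' log2 levels by library, with a bar at the median. Purple points gather below the horizontal zero line but on both sides of the vertical one (medians -0.32 and 0.01), and the purple bars are lower in control 2 and lowest in cKO 2.

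Base composition separated the members along the same line. The main coding transcript of members with a KRAB core match had a median G+C of 40.8%, that of members without a match 49.7%, and that of all genes tested with such a transcript 50.5%. Over the 154 members, the difference between numbers went with G+C with a Spearman rho of 0.81 (Pearson r 0.78), a correlation across genes that share the same 4 libraries and are not independent. It was 0.78 within the 58 members with a match and 0.73 within the 95 without. Over 8919 other genes averaging at least 5 FPKM it was 0.51. For the difference between genotypes rho was 0.51 over the members, 0.13 within number 1 and 0.65 within number 2.

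Between the libraries numbered 2 and 1, the median of the members had the same sign as that of other genes in each of the 6 G+C classes. Below 40% G+C, the 27 members had a median of -0.99 for number 2 minus number 1, and the 385 other genes -0.47. From 40% to 44% it was -0.55 over 33 members and -0.24 over 1178 other genes, and from 44% to 48% it was -0.12 and -0.01. In these classes the members lay further down than other genes. From 48% to 52% it was 0.17 over 26 members and 0.15 over 1946 other genes. From 52% to 56% it was 0.18 over 17 members and 0.27 over 1922 other genes, and above 56% it was 0.34 and 0.33. For cKO minus control, the members' median ran from -0.29 below 40% to 0.14 above 56%, and that of the other genes from -0.21 to 0.11. The signs were opposite in the class from 48% to 52%, at -0.06 in members and 0.03 in other genes.

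**Figure D3:**
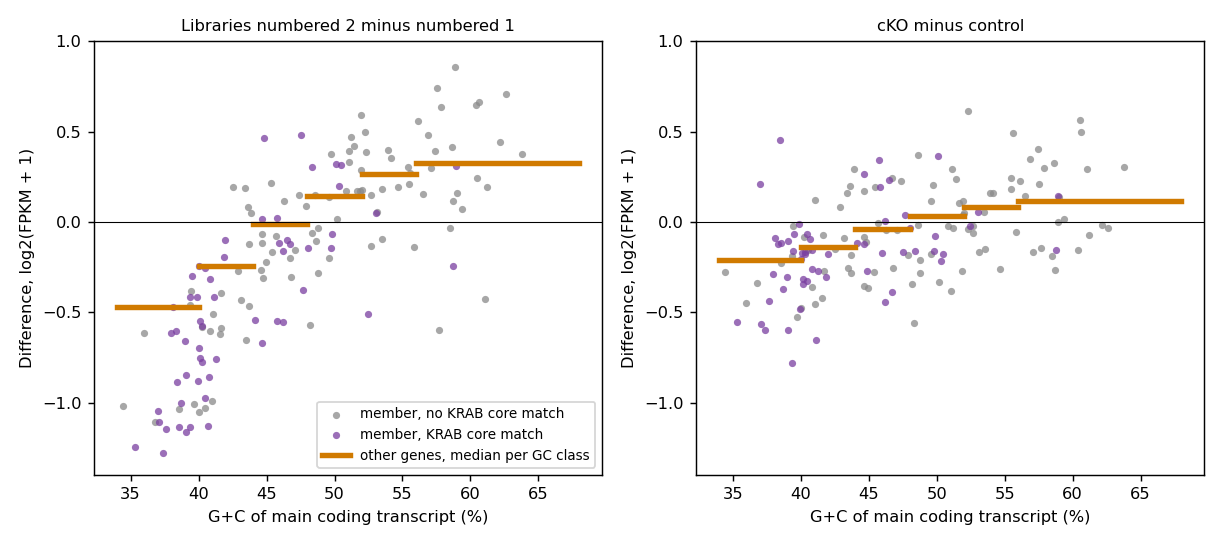
Log2 difference against G+C of the main coding transcript (%) for the members (points, purple with a KRAB core match) and the median of other genes averaging at least 5 FPKM in each G+C class (orange bars; the outer classes are drawn only over the range shown); left, libraries numbered 2 minus numbered 1; right, cKO minus control. The points climb from left to right in the left panel, from a median of -0.99 below 40% to 0.34 above 56%, and less steeply in the right panel, from -0.29 to 0.14.

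The members also differed from other genes in the build of their transcripts. Their main coding transcripts had a median of 5 exons and a last exon of 2276 nt, against 9 exons and 1197 nt over the genes tested that averaged at least 5 FPKM. The bases GGACT, a common form of the sequence at which m6A is placed, occurred a median of 0.88 times per kb of the members' main transcripts and 1.04 times in those genes, counted on the sense strand only. Across the 154 members the difference between genotypes had a Spearman rho of 0.21 with the density of GGACT, -0.17 with transcript length, -0.07 with exon number and 0.01 with mean level. With the number of fingers rho was -0.23 (153 members), and with G+C it was 0.51. GGACT itself holds G and C, and its value apart from G+C was not tested.

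Position grouped the members too. Of the 154, 32 lie on chromosome 7 and 19 on chromosome 17. Taking members on a chromosome with gaps of at most 1 Mb gave 10 groups of 4 or more, and the 3 described here were picked after their values were seen. The proximal group on chromosome 17 (chr17:21008903-22867134, GRCm38) held Zfp160, Zfp54, Zfp51, Zfp52, Zfp948, Zfp942, Zfp943, Zfp944, Zfp758 and Zfp945, of which 9 had a KRAB core match, with a G+C of 35.3% to 40.7%. Zfp942, whose fingers are printed above, was at 15.5 and 7.34 FPKM in the controls and at 12.3 and 3.49 in the cKO libraries. Zfp758 was at 7.43 and 4.07 against 7.20 and 1.42 FPKM.

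In all 10 genes of this group both libraries numbered 2 were below both numbered 1 (24.6% of all genes tested were), by -1.28 to -0.62 on the log2 scale. Not one separated the genotypes. Within number 2, 9 of the 10 were lower in cKO, with a median of -0.60, and within number 1, 6 of the 10 were, with a median of -0.06. Zfp52 alone was higher in cKO within both numbers, at 7.65 and 5.05 FPKM in the controls and 14.3 and 5.42 in the cKO libraries.

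A group further along chromosome 17 (chr17:32765496-33631779) held Zfp871, Zfp799, Zfp472, Zfp563, Zfp101 and Zfp414. All 6 were lower in cKO within both numbers (37.6% of all genes tested were). Zfp799, Zfp472 and Zfp414 were lower without overlap of the genotypes (16.6% of all genes tested were). Zfp414, which has no KRAB core match and a G+C of 58.7%, was at 12.1 and 13.7 FPKM in the controls and at 10.3 and 10.8 in the cKO libraries. Its level is uncertain, since 23.3% of the 75-base stretches of its most abundant coding transcript recur in transcripts of other genes. That transcript held 35.8% of the level, and the others were not checked.

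A group on chromosome 7 (chr7:127233061-127885996) behaved in the opposite way. It held Zfp553, Zfp768, Zfp629, Zfp668 and Zfp646, none with a KRAB core match, with a G+C of 51.4% to 58.6%. In all 5 both libraries numbered 2 were above both numbered 1 (32.8% of all genes tested were), by 0.35 to 0.64. All 5 were also higher in cKO within number 1 (0.12 to 0.31) and number 2 (0.05 to 0.46). Of all genes tested, 31.8% were higher within both. None of the 5 separated the genotypes. Zfp646, the most abundant, was at 17.3 and 22.6 FPKM in the controls and at 19.0 and 25.9 in the cKO libraries.

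**Figure D4:**
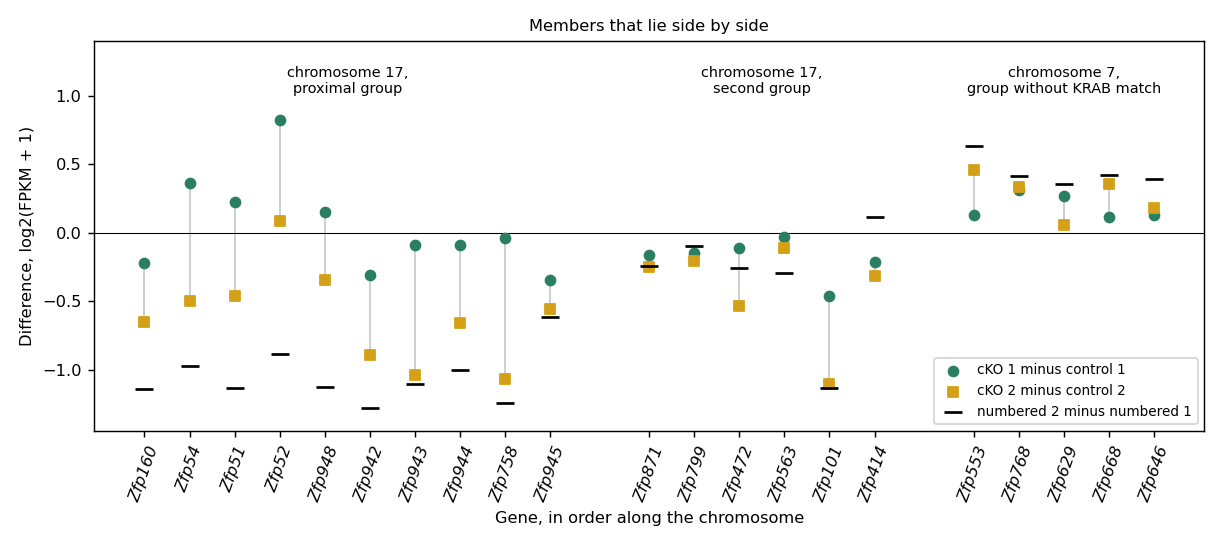
Log2 differences for members that lie side by side on chromosomes 17 and 7, in chromosomal order: green circles are cKO 1 minus control 1, yellow squares cKO 2 minus control 2, and black bars the libraries numbered 2 minus those numbered 1. Black bars lie between -1.28 and -0.62 in the proximal chromosome 17 group and between 0.35 and 0.64 in the chromosome 7 group, and yellow squares lie below green circles throughout the former.

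Zfp-numbered genes of lower level and zinc finger genes of other names were taken for comparison. The 127 Zfp-numbered genes that averaged 1 to 5 FPKM and were tested had a median log2 difference of -0.12 between genotypes and of -0.16 between numbers, close to the members. Of these, 10 were higher (7.87%) and 19 lower (14.96%) in cKO without overlap, against 16.2% and 16.6% of all genes tested. The 36 tested genes named Zbtb, Zkscan, Zscan or Znf with a number and a mean of at least 5 FPKM had a median of 0.12 between genotypes (0.22 within number 1, 0.10 within number 2), with 11 higher (30.6%) and 3 lower (8.33%) without overlap, read against the same backgrounds. Their median between numbers was 0.00 and their median G+C 50.4%. These differences between gene groups were not tested.

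The co-repressor machinery that KRAB proteins use was read from a list of 36 symbols covering Trim28, the histone H3 lysine 9 methyltransferases, the HUSH and NuRD complexes, heterochromatin proteins and DNA methyltransferases. Tasor was not tested under that name and the same gene was tested as Fam208a, leaving 35. None passed the adjusted threshold in either direction, 2 had an unadjusted p under 0.05, and 3 were higher (8.57%) and 9 lower (25.7%) in cKO without overlap, against the 16.2% and 16.6% of all genes. Their median log2 difference was -0.13. Trim28 itself was at 114.2 and 135.0 FPKM in the controls and at 92.5 and 131.2 in the cKO libraries, which overlapped (-0.17, SE 0.28).

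The 4 members of that list with the smallest p were Cbx5, Mbd3, Mphosph8 and Chd3. Cbx5, which encodes heterochromatin protein HP1 alpha, was at 32.9 and 33.4 FPKM against 22.7 and 23.1 (log2 difference -0.51, SE 0.19; adjusted p = 0.959, limma), and the replicates of each genotype were within 1 FPKM of each other. Mbd3, a NuRD subunit, was at 22.0 and 26.9 against 32.5 and 43.7 FPKM (0.62, SE 0.24). Mphosph8, the chromodomain subunit of HUSH, was at 6.11 and 5.15 against 4.33 and 2.15 FPKM (-0.69, SE 0.31). Chd3, a NuRD remodeller, was at 46.5 and 64.5 against 33.9 and 42.3 FPKM (-0.52, SE 0.26). In each of the 4 the cKO libraries did not overlap the controls, which choosing the smallest p in these same libraries favours. The same sign within both numbers follows from that lack of overlap, so neither adds support.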

How the data were processed

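RNA sequencing libraries of epidermal keratinocytes, 2 control and 2 cKO, were read from the table of 110295 transcripts that the authors deposited, whose values were taken as FPKM from their sums, since the header names no unit. They could equally be RPKM. The labels' protocols name poly(A) selection or ribosomal RNA removal without saying which. The submitters' processing notes list fastp, HISAT2, HTSeq and GRCm38; the annotation, the quantifier and the strand setting were not found in them or in the labels. The table heads the control columns WT, while by the labels these mice carried a floxed allele. Values were summed per symbol and tested as log2(FPKM + 1), on which differences of low genes come out too small, with limma 3.58.1 (R 4.3.3, trend on, genotype only, 2 residual degrees of freedom), after a filter of at least 1 FPKM in at least 2 libraries (13817 genes), with Benjamini-Hochberg adjustment at 0.05. The test was tried on simulated data without a shift between replicate numbers and with changes larger than those of the members. That trial does not show how the test performs on these libraries. Depth came from whole-read steps of low values in genes with 1 transcript, within 0.2 reads. No table column was left unused.

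The members and gene lists were chosen with earlier results of these data known. Named members are any past the threshold, the 12 largest differences each way without overlap, the 10 highest and the 2 on each side of the level of 5; of the co-repressor list, the 4 smallest p. Because no protein table was given, finger and KRAB patterns were read from GENCODE M21 coding sequences translated with Python 3.11.15, on the longest complete coding sequence listed for a gene. That annotation held 98.04% of the transcripts. G+C, exons and lengths are those of the most abundant coding transcript. Shared sequence is the share of 75-base stretches of a gene's most abundant coding transcript found in transcripts of any other gene. It shows where reads could be divided, not how they were. Alternatives covered scaling, transcript type, pseudocount, filters, the level that defines members, each library left out, the replicate number as a block and, chosen after seeing the data, removal of the G+C trend.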

Additional observations from a re-analysis of the deposited data

How the results depend on the processing

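No genotype call among the members depended on scaling, transcript type, pseudocount or filter: 0 genes were called under each. Without 1 library, which leaves 1 library in a group, 9 to 71 genes were called, the members above and below numbered 22 to 55 and 35 to 90, and the family median ran from -0.193 to 0.0686, the latter without cKO 2. The replicate numbers share only a number, with 2 pairs and no pairing in the labels. Across genes, number 2 minus number 1 correlated at 0.72 between the genotypes, and cKO minus control at 0.54 between the numbers. With the number as a block, 900 genes were called (6.51%) and 4 of 154 members (2.60%): Zfp637 (adjusted p = 0.024), Zfp617 (adjusted p = 0.0296), Zfp101 (adjusted p = 0.0343) and Zfp524 (adjusted p = 0.0482, limma throughout). With the G+C trend removed, chosen after seeing the data, 29 members were above and 22 below, the family median was -0.03, and 0 genes were called; with the block as well, 1421 genes (11.6%) and 6 members (3.90%) were: Zfp637, Zfp617, Zfp101, Zfp704, Zfp740 and, higher in cKO, Zfp52 (0.672; adjusted p = 0.02, limma), while Zfp524 had an adjusted p of 0.0529. With members set at a mean of at least 10 FPKM, 11 were above and 9 below. For these counts and those with the G+C trend removed, no share of all genes is given here. They cannot be read against a background.

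Signs turned in 8 of the 10 members named for their level or their place at the threshold alone. Over protein-coding transcripts only, Zfp532 was at 0.0249. Over the fits without a library, log2 differences ran from -0.307 to 0.282 in Zfp266, -0.0836 to 0.0697 in Zfp185, -0.884 to 0.0424 in Zfp644, -0.125 to 0.0967 in Zfp91, -0.178 to 0.0545 in Zfp532, -0.529 to 0.239 in Zfp692, -1.43 to 0.327 in Zfp758 and -0.568 to 0.225 in Zfp850. With the G+C trend removed, with or without the block, Zfp266 was at 0.171, Zfp185 at 0.0504 and Zfp850 at 0.00688. For the 24 members named because their genotypes did not overlap, that choice itself fixes the sign when a library is left out, so it says nothing about stability. The cause of these changes was not tested. Depth limits members near 82 reads to changes well above 11.0%.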
